A study of Sus scrofa with 27 samples.

Results

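The genes described here are the BCL2 family of apoptosis regulators in pig lungs kept under ex vivo lung perfusion (EVLP), a procedure in which a donor lung is ventilated and perfused outside the body. The listed genes were BCL2, BCL2L1, MCL1, BCL2A1, BAX, BAK1, BBC3, PMAIP1, BCL2L11 and BID. Of these 10 genes, 7 could be measured among the 31908 genes of the count table. BCL2L1, BCL2A1 and PMAIP1 carried their symbol in the table, whereas BAK1, BBC3, BCL2L11 and BID had a blank gene name and were found by their description. The other 3 genes could not be read. The lungs came from Large-White pigs under a non-heart-beating donor model, went through cold ischemia and were then perfused for 12h with Steen solution that held methylprednisolone, cefuroxime and heparin. In the Gold Standard (GS) group, the lungs of 5 pigs (pigs 9, 17, 44, 55 and 77), part of the perfusate was renewed at intervals. In the Pediatric Dialysis (PD) group, the lungs of 4 pigs (pigs 2, 3, 4 and 5), a hemodialyzer with a pediatric membrane ran continuously on the circuit. A biopsy of each lung was sequenced at 0h (after cold ischemia), 6h and 12h, which gave 15 GS and 12 PD libraries. Neither group holds a lung without perfusion, and every lung received the same drugs, so the time comparisons are within perfused lungs.

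Apoptosis through mitochondria is decided by the balance between proteins of this family. BCL2, BCL-XL (from BCL2L1), MCL-1 and A1 (from BCL2A1) are guardians that hold back cell death. BAX and BAK (from BAK1) are effectors that open the outer mitochondrial membrane, and the BH3-only proteins PUMA (from BBC3), NOXA (from PMAIP1), BIM (from BCL2L11) and BID sense stress and either neutralise guardians or activate effectors. Most of the family is controlled by binding between proteins and by protein turnover, so a transcript level is one layer of that control.

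The BH3 motif is the short helix through which the family members bind each other, and its coding sequence is shown because it was found in 6 of the 7 measured members. The stretches were read from the RefSeq coding exons of Sscrofa11.1, each within a single exon, and each is 54 bases long. Capitals mark the 6 codons of the core, which runs from leucine or phenylalanine to the invariant aspartate with glycine or alanine just before it. The stretch of BAK1 is the first of 2 matches, and BCL2A1 held 0 matches of this pattern.

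BCL2L1 (chr17:35413735-35413788, minus strand, guardian): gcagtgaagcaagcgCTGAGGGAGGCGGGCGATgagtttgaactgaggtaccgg
BAK1 (chr7:29811727-29811780, minus strand, effector): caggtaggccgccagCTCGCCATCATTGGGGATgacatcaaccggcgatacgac
BID (chr5:69851333-69851386, minus strand, BH3-only): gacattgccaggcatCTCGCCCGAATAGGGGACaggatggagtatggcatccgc
BCL2L11 (chr3:45174068-45174121, minus strand, BH3-only): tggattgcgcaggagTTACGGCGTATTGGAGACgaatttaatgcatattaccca
BBC3 (chr6:53040924-53040977, minus strand, BH3-only): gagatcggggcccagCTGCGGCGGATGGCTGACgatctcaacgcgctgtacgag
PMAIP1 (chr1:161185230-161185283, minus strand, BH3-only): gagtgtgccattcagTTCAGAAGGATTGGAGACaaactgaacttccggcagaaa

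Among these stretches, PMAIP1 alone opened its core with phenylalanine and BBC3 alone had alanine before the aspartate. The pairs with the most bases in common were BAK1 and BBC3 with 30 of 54, BBC3 and BCL2L11 with 29, and BBC3 and PMAIP1 with 27. The stretches describe the genes and were not part of the count data.

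No usable value was found for 3 of the listed genes, which leaves a gap on both sides of the balance. MCL1 was listed at 0 in all 27 libraries. Its row had the same coordinates as that of ENSA (chr4:98527907-98567006, plus strand), which held 65158 counts in all, whereas RefSeq places MCL1 at chr4:98562092-98567014, nearly all of it inside that span. BCL2 had no row of its own. Its RefSeq locus (chr1:158337403-158518214, plus strand) lay inside the row of KDSR, which held 54708 counts. The row described as BAX was named DHDH and ran over chr6:54187260-54228144, far beyond the RefSeq BAX gene (chr6:54222341-54228150), and it overlapped FTL. Its 31882 counts cannot be assigned to BAX. On that row the log2 change from 0h ranged from −0.55 (SE 0.47, PD at 6h) to −0.15 (SE 0.14, GS at 12h), with adjusted p from 0.251 to 0.693 by edgeR's quasi-likelihood test. The log2 ratio of that row at 12h was 1.44 in PD pig 2 and −0.87, −1.44 and −1.08 in pigs 3, 4 and 5. Without the 12h library of pig 2, introduced below, the PD change at 12h was −1.08 (SE 0.34, adjusted p = 0.0318), which passed the call rule given below.

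The libraries differed in depth between the groups. The GS libraries held 26335584 to 67522703 counts (median 53623755) and the PD libraries 14650700 to 21820935 (median 19344265), so sequencing depth and group cannot be told apart. The floor of 3 counts lay at or under 0.114 CPM for GS libraries and 0.205 CPM for PD libraries, and the lowest count of any measured member was 25 (BBC3 in PD pig 4 at 6h). The 12h library of PD pig 2 stood apart, with a median Spearman correlation of 0.847 with the other libraries of its group and time against 0.915 to 0.980 for the other libraries. Members' changes, group comparisons and ratios at 12h in PD, and the pathway calls, are therefore also given without it. The correlations and the marker sums include it. The lung markers SFTPC, SFTPB and SFTPA1 were abundant in all libraries, and insulin was at 0 counts in every one. In whole biopsies, fewer cells of a type and less RNA per cell cannot be told apart.

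Values below are CPM, the counts of a gene scaled to the library's total after TMM normalisation. A change from 0h was called when the Benjamini-Hochberg adjusted p over all genes tested was under 0.05 and the fold change at least 2, with the pig as a block. Under that rule BCL2A1, PMAIP1 and BCL2L11 rose in GS at both 6h and 12h. In PD no member was called at 6h by edgeR, where BCL2A1, PMAIP1 and BCL2L11 had an unadjusted p under 0.05 and DESeq2 called PMAIP1 and BCL2L11 (2.75% of all genes were called by DESeq2 there). At 12h in PD PMAIP1 and BCL2L11 rose. In GS, 11.1% of 18594 genes were called at 6h and 15.7% at 12h, against 3 of the 7 members each time. In PD, 0.142% of 15545 genes were called at 6h and 5.98% at 12h, against 0 and 2 members. These shares, without the 12h library of PD pig 2, became 1.59% and 26.2% of 15875 genes, against 2 of the 7 members each time (PMAIP1 and BCL2L11). The fitted change was positive for 7 of 7 members at both times in GS, with a median log2 fold change of 0.63 at 6h and 0.74 at 12h, where the median over all genes tested was −0.05 and −0.08. In PD it was positive for 6 members at 6h and 7 at 12h, with medians of 0.71 and 0.98 beside −0.02 and −0.05 over all genes. No member was called lower in either group.

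**Figure D1:**
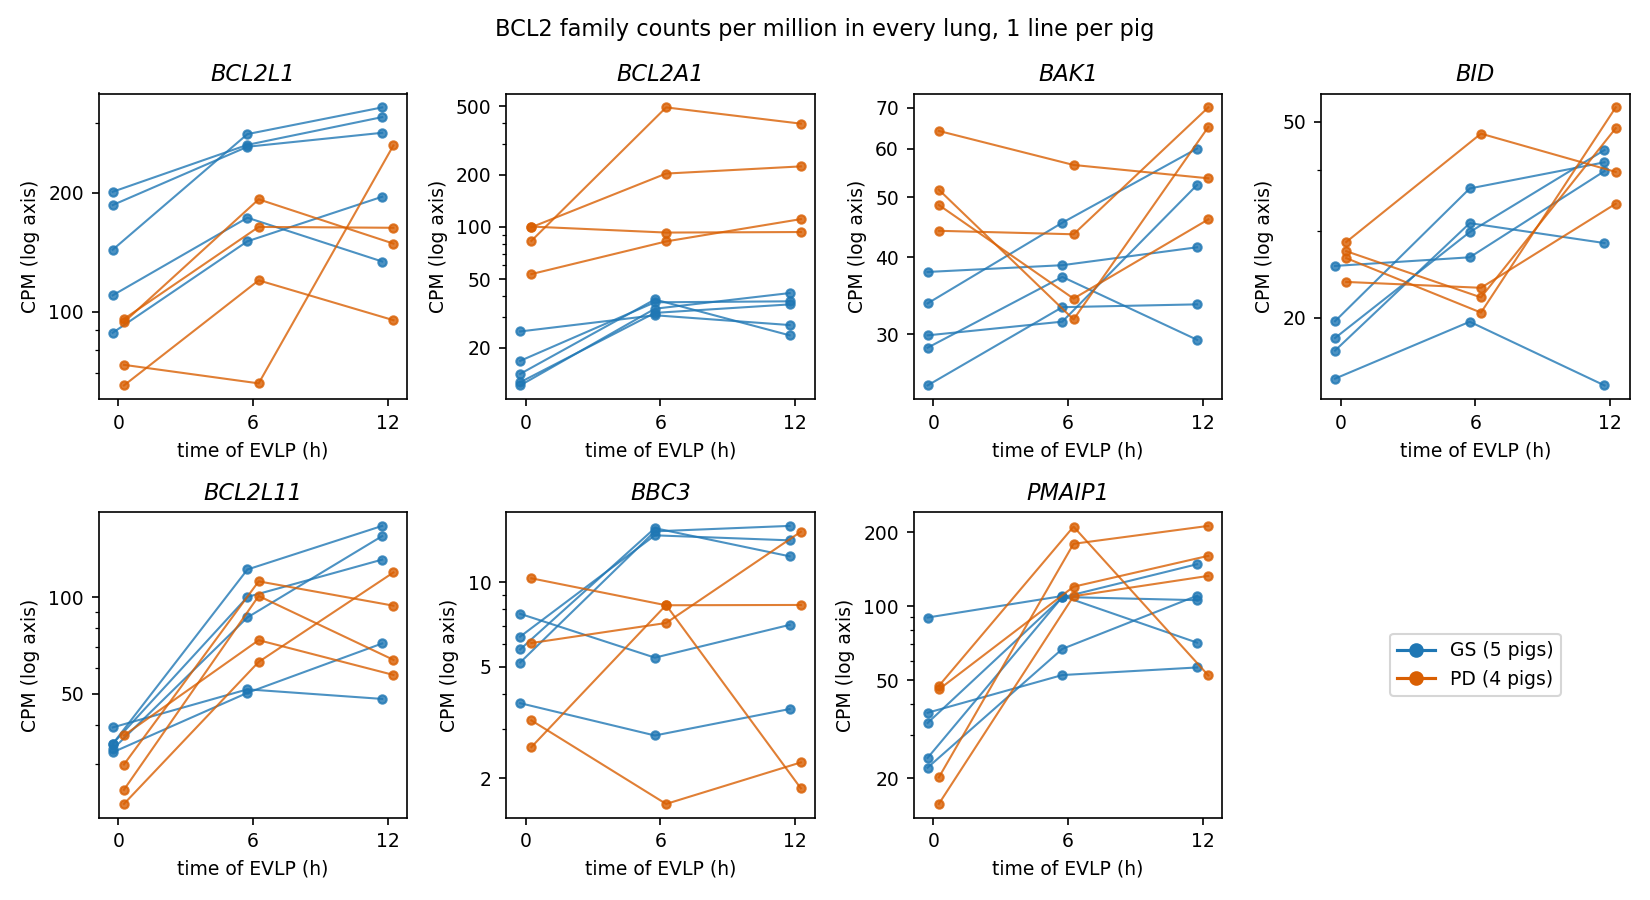
CPM (log axis, scaled per panel) of the 7 measured members against the time of EVLP (h), with 1 line per pig, GS in blue (5 pigs) and PD in orange (4 pigs). PMAIP1 and BCL2L11 are higher at 6h than at 0h in all 9 pigs, and the PD lines of BCL2A1 lie above the GS lines at each time.

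Among the BH3-only genes, PMAIP1 (ENSSSCG00000026454, chr1:161182868-161188164, minus strand) codes for NOXA, which chiefly neutralises MCL-1 and A1. In GS its CPM at 0h was 89.9, 36.9, 22.1, 24.2 and 33.5 in pigs 9, 17, 44, 55 and 77. At 6h it was 110.0, 52.5, 67.1, 109.0 and 108.6 in the same order, and at 12h 71.1, 56.4, 110.3, 105.8 and 148.1. Pig 9 started highest and was the only GS pig below its own start at 12h. In PD the CPM at 0h was 47.4, 45.9, 20.1 and 15.7 in pigs 2, 3, 4 and 5, at 6h 210.5, 120.0, 179.3 and 109.8, and at 12h 52.3, 160.2, 212.0 and 132.8. All PD libraries of 6h lay above all PD libraries of 0h, while the 12h value of pig 2 returned to near its start. On the log2 scale PMAIP1 rose in GS by 1.15 after 6h (SE 0.32, adjusted p = 0.0194, higher in 5 of 5 pigs) and by 1.32 after 12h (SE 0.33, adjusted p = 0.00785, higher in 4 of 5 pigs). The 6h change in PD was 2.31, with an adjusted p of 0.113 (SE 0.50, higher in 4 of 4 pigs). After 12h in PD PMAIP1 rose by 2.19 (SE 0.51, adjusted p = 0.0342, higher in 4 of 4 pigs). Without the 12h library of PD pig 2 the 6h change was 2.33 (adjusted p = 0.00447) and the 12h change 2.65 (adjusted p = 0.00212). The 6h call in GS was lost without pig 44, 55 or 77 (adjusted p 0.0691, 0.0879 and 0.0725), and the 12h call in GS without pig 44 (adjusted p 0.0536). The 12h call in PD was lost without pig 3, 4 or 5 (adjusted p 0.210, 0.118 and 0.317).

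BCL2L11 (ENSSSCG00000022322, chr3:45156249-45201724, minus strand) codes for BIM, which binds all the guardians and can activate the effectors directly. The CPM of the GS pigs at 0h kept to a narrow range of 32.7 to 39.2 with a median of 34.8. At 6h it was 51.5, 50.3, 122.1, 86.5 and 100.2 in pigs 9, 17, 44, 55 and 77, and at 12h 48.1, 71.7, 167.1, 155.3 and 131.1. Pigs 44, 55 and 77 rose further than pigs 9 and 17 at both times. In PD the CPM at 0h was 30.0, 37.0, 25.0 and 22.6 in pigs 2, 3, 4 and 5, at 6h 112.1, 73.4, 100.9 and 62.8, and at 12h 94.1, 57.2, 63.7 and 119.5. In both groups all libraries of 6h and of 12h lay above all libraries of 0h. The rise in GS was 1.08 log2 units after 6h (SE 0.24, adjusted p = 0.00554, 5 of 5 pigs) and 1.52 after 12h (SE 0.24, adjusted p = 0.000601, 5 of 5 pigs). For PD the change was 1.59 after 6h with an adjusted p of 0.135 (SE 0.37, 4 of 4 pigs) and 1.53 after 12h with an adjusted p of 0.0380 (SE 0.37, 4 of 4 pigs), or 0.0312 at 6h and 0.0125 at 12h without the 12h library of pig 2. The 6h change in GS fell just under a fold of 2 without pig 44 or pig 77 (0.92 and 0.99 log2 units), and the 12h call in PD was lost without pig 3, 4 or 5 (adjusted p 0.192, 0.0832 and 0.342).

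BBC3 (ENSSSCG00000003112, chr6:53037103-53046887, minus strand), the p53-responsive gene for PUMA, had the fewest counts of the members. Its CPM in GS went from 6.39, 5.75 and 5.17 at 0h to 14.7, 15.6 and 15.2 at 6h and 14.1, 12.4 and 15.9 at 12h in pigs 44, 55 and 77. In pigs 9 and 17 it was 3.70 and 7.71 at 0h, 2.84 and 5.38 at 6h, and 3.53 and 7.04 at 12h. The GS pigs thus divided into 3 with a higher level at both times and 2 with a level at or below their start. In PD the range was 2.58 to 10.3 at 0h, 1.62 to 8.28 at 6h and 1.84 to 15.1 at 12h, with overlap at all times. Its fitted log2 change reached 0.63 after 6h (SE 0.30, adjusted p = 0.128) and 0.64 after 12h (SE 0.29, adjusted p = 0.0993) in GS, and 0.23 (SE 0.57, adjusted p = 0.888) and 0.06 (SE 0.56, adjusted p = 0.960) in PD. The PD value at 12h became −0.45 without the 12h library of pig 2.

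BID (ENSSSCG00000000769, chr5:69849002-69875853, minus strand) links death receptors to mitochondria once caspase-8 cleaves its protein. Its row overlaps that of BCL2L13 on the plus strand, and the strand used in counting was not given in the sources used here. The GS pigs had a CPM of 15.04, 25.5, 19.7, 18.2 and 17.2 at 0h in pigs 9, 17, 44, 55 and 77, then 19.6, 26.5, 36.6, 29.9 and 31.1 at 6h, and 14.6, 39.7, 41.4, 43.9 and 28.4 at 12h. BID changed in GS by 0.56 log2 units after 6h (SE 0.18, adjusted p = 0.0299, 5 of 5 pigs) and 0.71 after 12h (SE 0.18, adjusted p = 0.00748, 4 of 5 pigs), both below a fold of 2. In PD the CPM at 0h was 26.4, 23.7, 28.5 and 27.3 in pigs 2, 3, 4 and 5, at 6h 20.5, 23.0, 47.3 and 22, and at 12h 53.5, 34.1, 39.6 and 48.6. All PD libraries of 12h lay above all PD libraries of 0h, but the fitted change of 0.74 had an adjusted p of 0.211 (SE 0.34; 0.54 and 0.232 without the 12h library of pig 2), and that of 0.04 at 6h an adjusted p of 0.971 (SE 0.34).

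Among the guardians, BCL2A1 (ENSSSCG00000040010, chr7:48887094-48897870, minus strand) codes for A1, an NF-κB target best known from leukocytes. In GS its CPM at 0h was 24.9, 14.1, 12.6, 12.1 and 16.8 in pigs 9, 17, 44, 55 and 77. At 6h it was 30.9, 38.1, 31.9, 33.7 and 36.7, and at 12h 27.1, 23.6, 35.7, 41.5 and 37.2. All GS libraries of 6h lay above all GS libraries of 0h, and pig 9 changed least. In PD the CPM was 83.1, 100.5, 99.6 and 53.4 at 0h in pigs 2, 3, 4 and 5, then 491.4, 92.8, 203.6 and 82.5 at 6h, and 395.8, 93.5, 224.0 and 111.0 at 12h. Pig 2 rose most, and pig 3 stayed at its starting level. BCL2A1 rose in GS by 1.10 log2 units after 6h (SE 0.21, adjusted p = 0.00264, 5 of 5 pigs) and 1.02 after 12h (SE 0.21, adjusted p = 0.00259, 5 of 5 pigs). The change in PD was 0.94 at 6h with an adjusted p of 0.530 (SE 0.43, 3 of 4 pigs), and at 12h 0.98 with an adjusted p of 0.182 (SE 0.42, 3 of 4 pigs), or 0.90 and 0.114 without the 12h library of pig 2. The 12h change in GS was under a fold of 2 without pig 44 or pig 55 (0.91 and 0.84 log2 units).

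Neutrophils are rich in A1, and 6 of 8 neutrophil markers had a row that could be tested. By edgeR and by DESeq2, 0 of these 6 were called higher at 6h or at 12h in GS or in PD, and counts in the lower direction are not reported here. The nearest was MMP25 in GS at 12h, 0.77 log2 units higher (unadjusted p = 0.00883, adjusted p = 0.0282) and under a fold of 2. Their summed CPM in GS was 155.3 to 441.3 at 0h, 228.9 to 274.2 at 6h and 161.2 to 471.0 at 12h, so the summed level overlapped between times. In PD at 6h S100A8 and S100A12 had log2 changes of −1.52 and −1.08 (unadjusted p 0.0103 and 0.0347, adjusted p 0.345 and 0.491). The summed CPM in PD was 628.4 to 1266 at 0h, 243.7 to 1130 at 6h and 268.5 to 1537 at 12h. None of the 7 macrophage markers was called in any of these 4 comparisons by edgeR or DESeq2.

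Among lymphocyte markers a few were called, all lower. The B cell gene MS4A1 fell in GS by 1.29 log2 units at 6h (SE 0.25, adjusted p = 0.00313) and by 1.62 at 12h (SE 0.26, adjusted p = 0.000635), and in PD by 2.39 at 12h (SE 0.44, adjusted p = 0.0189). It was the only one of 4 B cell markers called by edgeR each time. Of 4 T cell markers tested, CD2 fell in GS at 12h by 1.20 (SE 0.16, adjusted p = 0.000233) and CD3D in PD at 12h by 1.58 (SE 0.32, adjusted p = 0.0240), and 0 were called at 6h in either group by edgeR or DESeq2, with 3 in GS and 1 in PD at an unadjusted p under 0.05. The summed CPM of the T cell list went from 147.6 to 251.9 at 0h to 61.6 to 157.7 at 12h in GS, which overlap, and from 112.5 to 191.3 to a range of 70.25 to 86.5 in PD, which do not. For the B cell list it was 43.5 to 146.1 at 0h and 23.1 to 99.6 at 12h in GS, and 38.7 to 97.6 and 22.1 to 43.3 in PD. In PD at 12h without the 12h library of pig 2, edgeR called 26.2% of all genes. There 2 T cell markers (CD3D and CD5) and 2 B cell markers (MS4A1 and CD79B) were called lower. So were ABCA3 of the alveolar type 2 list, TPPP3 of the ciliated list and HBB of the red cell list, while the fibroblast gene PDGFRA was higher. By edgeR with all libraries, the red cell gene HBB changed in GS by −1.565 at 6h (adjusted p = 0.0246) and −1.5 at 12h (adjusted p = 0.0189), both called. In PD it changed by −2.48 at 6h and −2.67 at 12h (adjusted p 0.531 and 0.256), neither called. The part of leukocyte make-up and residual blood in the changes of the members was not tested.

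BCL2L1 (ENSSSCG00000035357, chr17:35366141-35415359, minus strand) codes for BCL-XL and had the most counts of the members. In GS its CPM at 0h was 110.1, 88.6, 200.9, 143.5 and 186.0 in pigs 9, 17, 44, 55 and 77, at 6h 172.8, 150.7, 263.9, 280.9 and 261.0, and at 12h 134.0, 195.2, 310.0, 328.0 and 283.0. The same 3 pigs, 44, 55 and 77, had the highest levels at each time. BCL2L1 changed in GS by 0.63 log2 units after 6h (SE 0.14, adjusted p = 0.00536) and 0.74 after 12h (SE 0.14, adjusted p = 0.00153), higher in 5 of 5 pigs both times and under a fold of 2. In PD the CPM was 73.5, 94.2, 65.2 and 95.9 at 0h in pigs 2, 3, 4 and 5, then 66.0, 192.3, 120.1 and 163.8 at 6h, and 263.0, 148.7, 95.3 and 163.0 at 12h. Pig 2 had not risen at 6h but held the highest value at 12h. In PD the log2 change was 0.71 after 6h with an adjusted p of 0.600 (SE 0.40, 3 of 4 pigs) and 1.02 at 12h with an adjusted p of 0.149 (SE 0.40, 4 of 4 pigs), and this change passed the call rule only with all 27 libraries in one fit. Without the 12h library of pig 2 it was 0.50 (adjusted p = 0.233).

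Of the effectors only BAK1 (ENSSSCG00000001516, chr7:29807021-29815318, minus strand) could be read. In GS its CPM was 24.8, 33.6, 37.8, 29.9 and 28.5 at 0h in pigs 9, 17, 44, 55 and 77, at 6h 33.2, 45.5, 38.8, 31.4 and 37.2, and at 12h 33.5, 60.0, 41.5, 52.4 and 29.4. In PD it was 44.1, 48.6, 64.1 and 51.5 at 0h in pigs 2, 3, 4 and 5, at 6h 43.6, 34.3, 56.5 and 31.7, and at 12h 70.0, 46.1, 53.7 and 65.1. Every GS pig was above its start at 6h and every PD pig below it, with pig 2 of PD nearly level. The fitted log2 change of BAK1 in GS was 0.26 after 6h (SE 0.15, adjusted p = 0.212) and 0.43 after 12h (SE 0.15, adjusted p = 0.0370, 5 of 5 pigs). Its change in PD was −0.35 after 6h (SE 0.31, adjusted p = 0.699) and 0.17 after 12h (SE 0.31, adjusted p = 0.779), or 0.05 without the 12h library of pig 2.

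**Figure D2:**
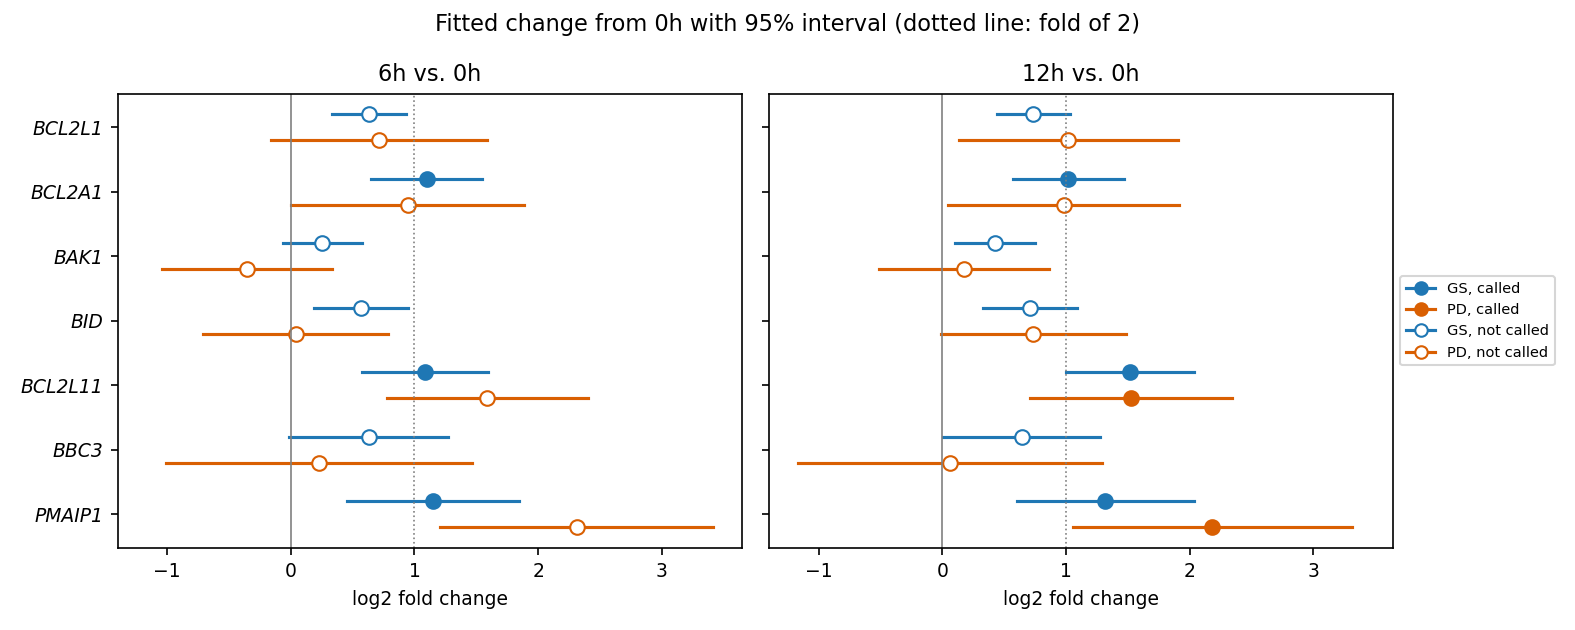
Fitted log2 fold change from 0h with its 95% interval for the 7 members at 6h (left) and 12h (right), GS in blue and PD in orange; filled points passed the call rule and the dotted line marks a fold of 2. The PD intervals are wider than the GS intervals throughout, and PMAIP1 in PD lies furthest to the right at 2.31 and 2.19.

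From 6h to 12h no member was called in either group. The adjusted p was 0.9995 for each member in GS and 0.529 to 0.990 in PD. The largest change in GS was that of BCL2L11, at 0.43 (SE 0.23, unadjusted p = 0.0837 by edgeR's quasi-likelihood test), and in PD that of BID, at 0.70 (SE 0.35, unadjusted p = 0.0679 by the same test). Over all genes 0% were called by edgeR in GS, with 882 of 18594 at an unadjusted p under 0.05, and 0% in PD, with 1562 of 15545. DESeq2 called 2 genes in GS and 235 in PD, and 0 members in either. In PD without the 12h library of pig 2 edgeR again called 0%, the change of BID was 0.52 (SE 0.33) and that of BBC3 the largest in size, at −0.70 (SE 0.53, unadjusted p = 0.207).

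The question of the study was whether dialysis changed the response of the lung, which was addressed by setting the log2 ratio to 0h of the PD pigs against that of the GS pigs. No member differed in the interaction of group and time by edgeR. Over all 17884 genes 0% were called at 6h and 0% at 12h, with 1046 and 1069 genes at an unadjusted p under 0.05, and DESeq2 called 7 and 15 genes with 0 members among them. PMAIP1 showed the largest difference at both times, with PD minus GS at 1.14 at 6h (SE 0.60, 95% interval −0.10 to 2.39, adjusted p = 0.783) and 0.84 at 12h (SE 0.61, 95% interval −0.44 to 2.12, adjusted p = 0.921). By the exact two-sided permutation test over pigs, its p was 0.0952 at 6h and 0.413 at 12h. Both intervals include no difference. Without the 12h library of PD pig 2 the differences of PMAIP1 were 1.16 at 6h (SE 0.48, 95% interval 0.17 to 2.14, adjusted p = 0.376) and 1.31 at 12h (SE 0.51, 95% interval 0.25 to 2.37, adjusted p = 0.146), where both intervals lie above 0 and neither adjusted p passed. In that fit 0% of 18298 genes were called at either time, with 2213 and 4259 at an unadjusted p under 0.05. The log2 ratio of PMAIP1 at 12h was 0.14 in pig 2, and without it the PD mean was 2.76 ± 0.84 (SD, n = 3) against 1.37 in GS (exact permutation p = 0.143). For BCL2L11 the groups differed by 0.50 in the 6h change (SE 0.42, adjusted p = 0.812) and by −0.02 in the 12h change (SE 0.43, adjusted p = 0.999). For BCL2L1 it was 0.07 (SE 0.38, adjusted p = 0.976) and 0.25 (SE 0.39, adjusted p = 0.959), and for BCL2A1 −0.16 (SE 0.45, adjusted p = 0.946) and −0.06 (SE 0.45, adjusted p = 0.996). The sign for BCL2L1 turned without the 12h library of PD pig 2, to −0.02 in the 6h change (SE 0.27, adjusted p = 0.984) and −0.24 in the 12h change (SE 0.29, adjusted p = 0.630), and the 12h value of BCL2L11 was −4.41e-05 (adjusted p = 1). The 12h value of BCL2A1 was then −0.13 (SE 0.45, adjusted p = 0.884).

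BAK1 was the only member whose ratios at 6h did not overlap between the groups, and 3.12% of all genes showed no overlap there. The log2 ratio ran from 0.04 to 0.44 in the GS pigs and from −0.70 to −0.02 in the PD pigs. The mean was 0.27 ± 0.20 (SD, n = 5) in GS and −0.35 ± 0.31 (SD, n = 4) in PD, and the exact two-sided permutation p was 0.00794, the smallest that 9 pigs allow. That was 1 of 14 such ratio comparisons, and in the interaction over all genes the difference of −0.62 (SE 0.30) had an adjusted p of 0.783, or 0.394 (−0.63, SE 0.27) without the 12h library of PD pig 2. At 12h 0 of 7 members and 2.09% of all genes had ratios without overlap, and BAK1 had an exact p of 0.317. Without the 12h library of PD pig 2, BBC3 alone had 12h ratios without overlap, as did 16.7% of all genes, with a mean of −0.43 ± 0.10 (SD, n = 3) in PD and 0.73 in GS (exact permutation p = 0.0357; interaction −1.09, SE 0.58, adjusted p = 0.255). BAK1 started higher in PD, and its CPM at 6h overlapped between the groups. BID leaned the same way at 6h, with log2 ratios of 0.58 ± 0.36 (SD, n = 5) in GS and 0.00 ± 0.51 (SD, n = 4) in PD (exact permutation p = 0.0794).

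**Figure D3:**
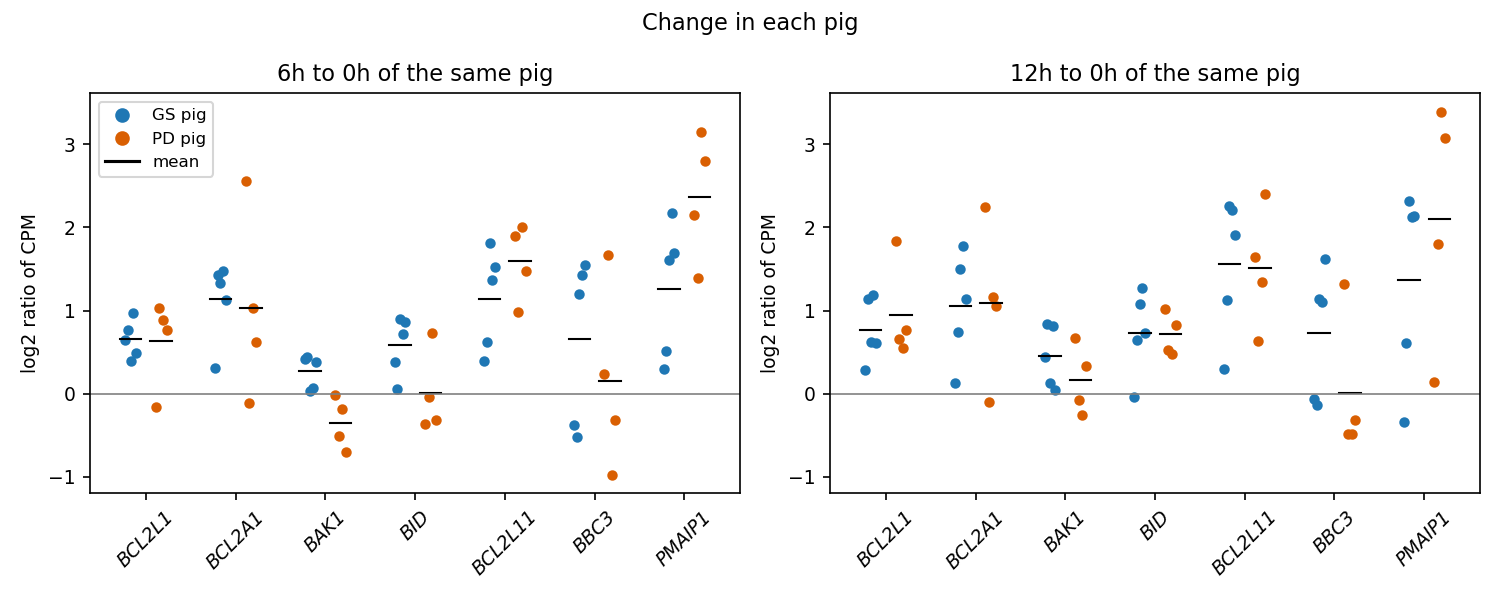
Log2 ratio of CPM to the 0h biopsy of the same pig for the 7 members at 6h (left) and 12h (right); each point is a pig, GS in blue and PD in orange, and black lines are means. At 6h the BAK1 points of the groups lie on either side of 0, and at 12h all members overlap.

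Before perfusion the groups already differed widely, and 40.6% of 16477 genes were called between PD and GS at 0h (adjusted p under 0.05, no fold minimum). Of the members 3 were called. BCL2A1 was higher in PD, with a log2 difference of 2.43 (SE 0.27, adjusted p = 5.31e-05), as was BAK1 with 0.80 (SE 0.19, adjusted p = 0.00603). BCL2L1 was lower in PD by −0.78 on the log2 scale (SE 0.26, adjusted p = 0.0290). These 2 higher members were also those without overlap between the groups at 0h, where 32.4% of all genes showed none. BID differed by 0.52 (SE 0.20, adjusted p = 0.0554), and PMAIP1, BCL2L11 and BBC3 by −0.32, −0.25 and −0.01 (adjusted p = 0.604, 0.330 and 0.985). The members' share called was therefore close to that of all genes.

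The higher BCL2A1 of PD persisted through the procedure. Its log2 CPM was 6.35 ± 0.43 (SD, n = 4) in PD and 3.96 ± 0.42 (SD, n = 5) in GS at 0h, 7.38 ± 1.19 and 5.09 ± 0.13 at 6h, and 7.44 ± 0.96 and 5.01 ± 0.34 at 12h. The groups did not overlap at any time, with an exact permutation p of 0.00794 each, the smallest possible, among 21 level comparisons. At 0h 32.4% of all genes showed no overlap either. The share of all genes was not counted for levels at 6h or 12h, so how unusual BCL2A1 is there was not tested. The PD level at 12h without the library of pig 2 was 7.05 ± 0.67 (SD, n = 3), again without overlap (exact permutation p = 0.0179, the smallest for 8 pigs). The markers moved with it in part. At 0h S100A8 was higher in PD by 3.27 (SE 0.50, adjusted p = 0.000382) and S100A12 by 2.29 (SE 0.42, adjusted p = 0.00120), whereas CSF3R was lower by −1.37 (SE 0.39, adjusted p = 0.0156), so that of 6 neutrophil markers 2 were higher, 1 lower and 3 not called. Hemoglobin HBB was higher by 4.96 (SE 0.73, adjusted p = 0.000284). Of 4 alveolar type 2 markers, 1 was higher, SFTPC by 3.56 (SE 0.40, adjusted p = 4.94e-05). Of the others, 1 was lower, SFTPB with −1.35 (SE 0.38, adjusted p = 0.0132), and 2 were not called. The part of leukocytes, residual blood, depth and library batch in the difference of BCL2A1 was not tested.

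Compared per length, as CPM per kb of RefSeq exons of the gene, the members took a different order in GS and PD, with BCL2L11 and BBC3 lowest in both at 0h. In GS at 0h BCL2L1 had 39.2 ± 12.9 CPM per kb (SD, n = 5), PMAIP1 38.3 ± 25.9 and BCL2A1 26.0 ± 8.42, and these neighbours did not differ beyond their spread. BAK1 followed with 11.1 ± 1.80 and BID with 9.53 ± 1.97, also within their spread of each other, and then BCL2L11 with 3.46 ± 0.25 and BBC3 with 2.61 ± 0.67. In PD at 0h BCL2A1 led with 135.7 ± 35.5 CPM per kb (SD, n = 4), ahead of PMAIP1 with 30.0 ± 15.5, BCL2L1 with 22.1 ± 4.10, BAK1 with 18.8 ± 3.09, BID with 13.2 ± 1.03, BCL2L11 with 2.83 ± 0.63 and BBC3 with 2.52 ± 1.60. PMAIP1, BCL2L1 and BAK1 did not differ beyond their spread there, nor did BCL2L11 and BBC3. By 12h PMAIP1 stood at 91.2 ± 33.4 CPM per kb in GS and 129.2 ± 61.8 in PD, and BCL2L1 at 67.3 ± 22.2 and 45.1 ± 18.8. The PD values without the 12h library of pig 2 were 156.2 ± 37.3 (SD, n = 3) for PMAIP1 and 36.5 ± 9.60 for BCL2L1. The RefSeq exons of all transcripts were joined, which can lengthen a gene and lower its value. BCL2L11 had the longest joined exons of the measured members (10125 bases), and how far joining lengthened each gene was not measured. The counts came from Ensembl rows, and a row that reaches beyond its RefSeq gene can raise the value. The PMAIP1 row started at 161182868 and its RefSeq gene at 161184458, with 1078 joined bases. For BCL2A1 the starts were 48887094 and 48887227 (620 joined bases), and for BAK1 29807021 and 29808849. How far this alters the order of the members was not measured.

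Because BCL2 and MCL1 could not be read, BCL2L1 was taken as the guardian to which the BH3-only genes were related, a choice made after the data were seen and given without a test. The log2 ratio of PMAIP1 to BCL2L1 counts in GS was −1.96 ± 1.16 (SD, n = 5) at 0h, −1.36 ± 0.48 at 6h and −1.35 ± 0.41 at 12h. In PD it was −1.49 ± 0.86 (SD, n = 4), 0.25 ± 1.11 and −0.34 ± 1.46. The ratio of BCL2L11 to BCL2L1 in GS was −1.995 ± 0.51, −1.50 ± 0.26 and −1.20 ± 0.25, and in PD −1.53 ± 0.37, −0.57 ± 1.04 and −0.97 ± 0.53. Both ratios had a higher mean at 6h and at 12h than at 0h in each group, but the SD is a spread between pigs and does not measure the change within a pig. In GS PMAIP1 rose more than BCL2L1 in pigs 44, 55 and 77 at both times, but not in pigs 9 and 17. Their log2 ratios to 0h at 6h were 0.29 and 0.51 for PMAIP1 and 0.65 and 0.77 for BCL2L1. In PD PMAIP1 rose more than BCL2L1 in every pig at 6h, and at 12h in every pig but pig 2 (0.14 against 1.84). BCL2L11 rose more than BCL2L1 in GS pigs 44, 55 and 77 at both times and in PD pigs 4 and 5 at both times. It rose less in GS pigs 9 and 17 at 6h and in PD pigs 2 and 3 at 12h. The PD ratios at 12h without the library of pig 2 were 0.32 ± 0.75 (SD, n = 3) for PMAIP1 and −0.80 ± 0.50 for BCL2L11. The ratio of BBC3 to BCL2L1 stayed between −4.68 and −4.63 on average in GS, and in PD it was −4.08 ± 0.87, −4.56 ± 1.23 and −5.02 ± 1.02 (−5.33 ± 1.01 at 12h without that library). The ratio of BCL2A1 to BCL2L1 in GS was −3.16 ± 0.75, −2.68 ± 0.45 and −2.88 ± 0.33 at 0h, 6h and 12h. In PD it was 0.01 ± 0.61, 0.40 ± 1.86 and 0.15 ± 0.92 (0.003 ± 1.07 at 12h without that library). The difference between the groups at 0h follows from the levels given above, where BCL2A1 was higher and BCL2L1 lower in PD.

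The members differed in how closely they moved together. After centring each pig on its own mean, log2 CPM over the 27 libraries correlated most between PMAIP1 and BCL2L11 (Pearson r = 0.877) and between BCL2A1 and BCL2L11 (r = 0.870). It correlated least between BAK1 and PMAIP1 (r = −0.021) and BAK1 and BBC3 (r = 0.124). These are descriptions, since the points share pigs and time. The named genes most like PMAIP1 included MEX3C (r = 0.975) and TNFAIP3 (r = 0.971). For BCL2L11 the 3 most alike were NFKBIA (r = 0.964), CDKN1A (r = 0.957) and MTPAP (r = 0.957). For BCL2A1 they were SF3B6 (r = 0.922), PARP16 (r = 0.900) and LLPH (r = 0.897). For BCL2L1 they were INHBA (r = 0.943), PRSS27 (r = 0.923) and CEBPD (r = 0.913), and for BAK1 NXF1 (r = 0.902), TP53RK (r = 0.892) and PSMB3 (r = 0.877).

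Around the members, calls in the rest of the apoptosis pathway differed between its lists. The share of all genes called by edgeR, to set beside each count, was 11.1% and 15.7% in GS at 6h and 12h and 0.142% and 5.98% in PD. By DESeq2 it was 11.9% and 16.4% in GS and 2.75% and 16.5% in PD. Of 9 other BCL2 family genes tested, 0 were called at 6h or 12h in either group by edgeR or by DESeq2. At an unadjusted p under 0.05 there were 1 and 3 in GS at 6h and 12h, and 1 and 0 in PD. Of 15 genes of the apoptosome, caspases and inhibitors, 2 rose in GS at 6h, the same 2 at 12h, and these 2 also in PD at 12h. In GS that is close to the share of all genes. In PD at 6h edgeR called 0, with 3 at an unadjusted p under 0.05, and DESeq2 called 1 (BIRC2). At 12h in PD the genes called by DESeq2 included CYCS, CFLAR and BIRC2. The 2 genes called by edgeR were CYCS, cytochrome c, which is released once BAX and BAK open the membrane, and CFLAR, the caspase-8 inhibitor FLIP. CYCS rose by 1.33 at 6h (SE 0.16, adjusted p = 0.000274, 5 of 5 pigs) and 1.25 at 12h (SE 0.16, adjusted p = 0.000170, 5 of 5 pigs) in GS, and by 1.77 at 12h in PD (SE 0.35, adjusted p = 0.0233, 4 of 4 pigs). CFLAR rose by 1.09 at 6h (SE 0.22, adjusted p = 0.00373, 5 of 5 pigs) and 1.29 at 12h (SE 0.22, adjusted p = 0.000917, 5 of 5 pigs) in GS, and by 2.08 at 12h in PD (SE 0.50, adjusted p = 0.0378, 4 of 4 pigs). The median log2 fold change over the 15 genes was −0.12 and −0.04 in GS at 6h and 12h and 0.18 and 0.00 in PD.

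Of 8 death receptor and adaptor genes tested, TNFRSF1A, the main TNF receptor, rose in GS at 6h (1.03, SE 0.17, adjusted p = 0.00144, 5 of 5 pigs). At 12h in GS FAS rose (1.12, SE 0.17, adjusted p = 0.000469, 5 of 5 pigs) and its ligand FASLG fell by 1.09 on the log2 scale (SE 0.19, adjusted p = 0.000999, 5 of 5 pigs). DESeq2 called TNFRSF1A there as well as FAS and FASLG, beside 16.4% of all genes. FASLG is made by T cells and natural killer cells, and all 4 T cell markers had a lower value in that comparison, from −1.20 (CD2, called) to −0.60 (CD5), with a median of −0.69. The part of T cell content in the change of FASLG was not tested. In PD 0 of the 8 were called at 6h or 12h by edgeR, with 2 and 3 at an unadjusted p under 0.05. DESeq2 called 0 at 6h and 2 at 12h (FAS and TNFRSF1A), beside 2.75% and 16.5% of all genes. Of 13 genes of the p53 axis and of the factors that drive BH3-only genes, 4 rose in GS at 6h, 4 at 12h, 1 in PD at 6h and 4 in PD at 12h. DESeq2 called 4 at each of these times, beside 11.9% and 16.4% of all genes in GS and 2.75% and 16.5% in PD. In PD at 6h these were CDKN1A, SESN2, ATF3 and TRIB3. TRIB3, a target of the integrated stress response, rose in GS by 3.02 by 6h (SE 0.25, adjusted p = 5.67e-05) and by 2.93 by 12h (SE 0.25, adjusted p = 3.71e-05). In PD it rose by 2.74 by 6h (SE 0.35, adjusted p = 0.0176) and by 3.73 by 12h (SE 0.36, adjusted p = 0.00540), in every pig of both groups. SESN2, a stress-induced regulator of metabolism, rose by 1.86 and 1.95 in GS at 6h and 12h (adjusted p = 0.000703 and 0.000314) and by 2.23 in PD at 12h (adjusted p = 0.0179). CDKN1A, the p53 target that codes for p21, rose by 1.68 and 1.59 in GS (adjusted p = 0.00166 and 0.00131) and by 2.09 in PD at 12h (adjusted p = 0.0185). The fourth gene was ATF4, the transcription factor of the integrated stress response, which is named here after its values were seen. It rose by 1.29 and 1.40 in GS (adjusted p = 0.000754 and 0.000279) and by 1.95 in PD at 12h (adjusted p = 0.0212). Of 7 genes for MCL-1 and BIM turnover and mitochondrial channels, 0 were called at any of these times by edgeR or DESeq2, with 4 and 4 in GS and 0 and 2 in PD at an unadjusted p under 0.05. No gene of these 5 lists was called in the interaction of group and time at 6h or 12h by edgeR or DESeq2. At an unadjusted p under 0.05 by edgeR there were 2 of these genes at 6h and 3 at 12h, or 6 and 13 without the 12h library of PD pig 2, where again 0 were called by edgeR. Without the 12h library of PD pig 2, where 26.2% of all genes were called in PD at 12h, more of the lists were called there. In the apoptosome list CYCS, CFLAR and BIRC2 were then among those higher and AIFM1 was lower. FAS and TNFRSF1A of the death receptor list were higher, as were the same 4 of the p53 list. The changes were then 1.77 for CYCS (adjusted p = 0.00624), 2.25 for CFLAR (adjusted p = 0.00796), 3.87 for TRIB3 (adjusted p = 0.000383), 1.96 for SESN2 (adjusted p = 0.00550), 2.08 for CDKN1A (adjusted p = 0.00513) and 1.63 for ATF4 (adjusted p = 0.00681). Of the other BCL2 family genes BCL2L15 was higher (2.32, SE 0.80, adjusted p = 0.0456) and BAD (−2.11, SE 0.52, adjusted p = 0.0137), BOK (−1.95, SE 0.51, adjusted p = 0.0167) and BCL2L12 (−1.32, SE 0.45, adjusted p = 0.0424) lower, and of the turnover genes BTRC was lower. In PD at 6h CDKN1A joined TRIB3 in that fit.

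**Figure D4:**
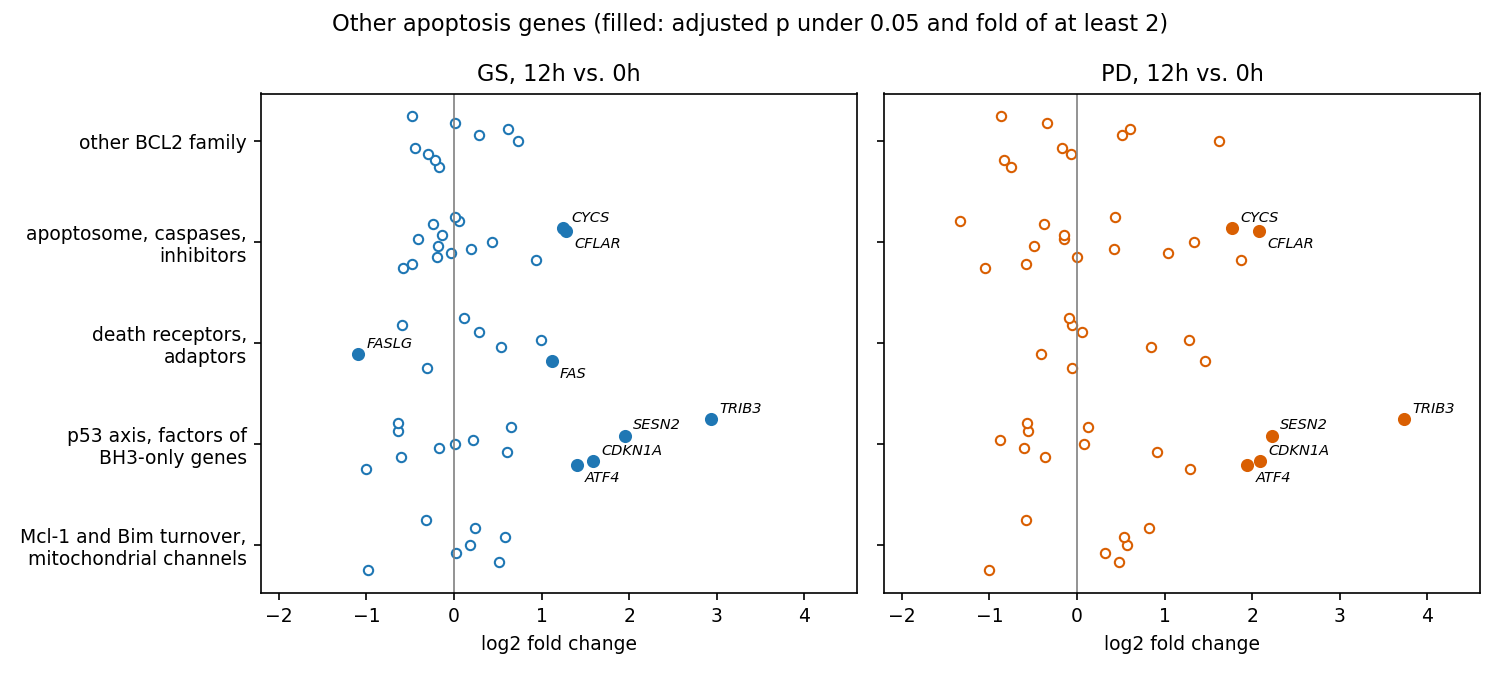
Log2 fold change at 12h vs. 0h of the other apoptosis genes tested, by list, in GS (left) and PD (right); each point is a gene, filled and named where it was called. TRIB3 lies furthest to the right, at 2.93 in GS and 3.73 in PD, and FASLG is the only gene called lower.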

How the data were processed

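RNA of 27 lung biopsies was sequenced from a stranded mRNA library kit. The authors trimmed reads with Cutadapt 1.15, aligned them with TopHat2 2.0.14 to Sscrofa11.1 and deposited whole-number read counts per Ensembl gene. The submitters' processing notes also name featureCounts, Subread 1.6.0 and DESeq2 1.18.1. The strand setting and the treatment of reads shared by overlapping genes are not given in the sources used here. RNA was extracted with either of 2 kits, and which biopsy had which is not given there either. Groups, pigs and times were taken from the sample labels, and each library is 1 biopsy of 1 lung.

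Counts were used as deposited. The table named 16719 of 31908 genes, 782 more were named by gene number, and 14407 had no symbol. The BAK1, BBC3, BCL2L11 and BID rows were found by description. The GS and PD libraries were modelled separately in edgeR 4.0.16 under R 4.3.3, after filterByExpr and TMM, with terms for time and for the pig as replicate block. Robust quasi-likelihood F tests were used, with Benjamini-Hochberg adjustment over all genes tested. The block follows from the biopsies of 1 pig. Libraries of the same pig had correlated residuals in GS (mean r 0.513, from 0.344 to 0.730) and little in PD (mean r 0.112, from −0.265 to 0.462). All 27 libraries were fitted together for the interaction, and the 9 libraries of 0h for the starting difference. Exact permutation tests were two-sided over the 126 divisions of 9 pigs, with CPM on a log2 scale after adding 0.5 counts, and their p-values are unadjusted. Fold changes are PD or time over its reference. Alternatives were DESeq2 1.42.0, its size factors, no low-count filter, no replicate block, no fold minimum, all libraries in one fit each pig left out and, chosen after seeing the data, the 12h library of PD pig 2 left out. The tests were checked on simulated counts drawn without differences between pigs, with changes well above a fold of 2 in genes of higher counts. That check does not cover the pairing, an outlying library or changes near the call rule.

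The members, lists and tests were chosen with earlier results of these data known. All measured members are named. From each other list up to 3 called genes with the largest change are named, and for each called member the 3 named genes of most similar pattern, except for items that are not reported here. BH3 stretches, loci and exon lengths were read from the RefSeq annotation of Sscrofa11.1, and DNA strands are as annotated. Planned ratios to BCL2 and MCL1 were replaced by ratios to BCL2L1.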

Additional observations from a re-analysis of the deposited data

Results flagged for a closer look

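In tests of 42 groups of 4 or 5 libraries for a single distant value, 2 were past the limit, about what chance gives at 1 in 20. Both are in PD pig 4 at 6h, where BBC3 had 1.62 CPM (25 counts) against 7.15 to 8.28 in the other PD pigs, and BID had 47.3 CPM against 20.5 to 23.0. BAK1 at 6h moved up in every GS pig and down in every PD pig, with a mean log2 ratio in PD minus GS of −0.62. The interaction test of that difference by edgeR had an adjusted p of 0.783.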

How the results depend on the processing

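Of the members, 5 at 6h and 6 at 12h were called in GS without the fold minimum, where 28.5% and 38.4% of all genes were. In PD at 6h, where 0 were called, 2 were called without the replicate block (0.643% of all genes), 2 by DESeq2 (2.75%), 2 with all 27 libraries in one fit (2.68%) and 2 with the 12h library of PD pig 2 left out (1.59%), PMAIP1 and BCL2L11 each time, and 1 (PMAIP1) without the low-count filter (0.39%). Without the replicate block GS lost PMAIP1 at 6h and BCL2A1 at 12h, leaving 2 members each time beside 6.04% and 10.2% of all genes, and no other call changed in GS or in PD at 12h. With all 27 libraries in one fit GS also lost PMAIP1 at 6h and PD gained BCL2L1 at 12h, beside 6.82% and 18.5% of all genes. With each pig left out in turn the count ran from 1 to 3 in GS at 6h and at 12h, from 0 to 1 in PD at 6h and from 0 to 2 in PD at 12h. The share of all genes called then ran from 7.2% to 11.4% in GS at 6h and from 11.6% to 18.8% at 12h. In PD it ran from 0% to 0.624% at 6h and from 0% to 24.4% at 12h. In GS only BCL2A1 was called at 6h without pig 44 or pig 77 (7.2% and 8.54% of all genes). Only BCL2L11 was called there at 12h without pig 44 (11.6% of all genes). The calls of PMAIP1 and BCL2L11 in PD at 12h held without pig 2, when 24.4% of all genes were called. Neither was made without pig 3, 4 or 5, when 0%, 2.55% and 0% of all genes were called. Signs turned for members that were not called. BBC3 in PD ranged from −0.42 to 0.65 at 6h and from −0.46 to 0.32 at 12h with a pig left out, and was −0.45 at 12h without the 12h library of pig 2. BAK1 in PD at 12h ranged from −0.0048 to 0.33 and BID in PD at 6h from −0.21 to 0.14. The cause was not tested. Every member kept a positive change in GS under every alternative listed, and BCL2L1, BCL2A1, PMAIP1 and BCL2L11 did so in PD as well. BBC3 had the fewest counts of the members in PD, with 25 to 194 per library. How far depth limits each member was not tested.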
